A study of Mus musculus with 4 samples.

Results

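The genes described here build cholesterol from acetyl units, control that pathway, take up sterol, pass it out of the cell, or store and remodel lipids beside it. They were given as a list of 33 gene symbols, of 24148 genes in the count table, and were grouped by role into 18 of synthesis, 7 of regulation, 1 of uptake, 3 of efflux and lipid transfer, and 4 of sterol storage and acyl chain modification. RNA was sequenced from primary microglia of the mouse, macrophages that live in the brain, which were detached by shaking from cultures of mixed glia and then replated. The cells of 2 libraries were given lipopolysaccharide (LPS), a surface lipid of Gram-negative bacteria that Tlr4 senses; the dose was 10 ng/ml and the time 4 h. The other 2 libraries are labelled control. The labels give no strain, age or sort for microglia. Nor is it stated that the 2 replicates of a group were separate cultures, so the p-values reach no further than the spread between these libraries, part of which may be technical.

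Cells make cholesterol along a single long pathway in which acetyl units become mevalonate, then isoprenoid diphosphates, squalene and sterols. When sterol is low, Scap carries the SREBP factors (encoded by Srebf1 and Srebf2) out of the endoplasmic reticulum and they switch the pathway on, while Insig proteins hold them back when sterol is high. Oxysterols made from cholesterol activate the nuclear receptors LXR alpha (Nr1h3) and LXR beta (Nr1h2), which raise the efflux transporters Abca1 and Abcg1, the ubiquitin ligase Mylip, which marks lipoprotein receptors for degradation, and the lipid enzymes Scd1 and Lpcat3. In macrophages surplus cholesterol is esterified by Soat1 and stored in droplets. Microglia take up cholesterol from myelin and dying cells and depend on these export and storage routes.

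After 4 h of LPS the storage enzyme Soat1 fell, and the transporters Abca1 and Abcg1 and the last-step enzyme Dhcr7 lay lower in both LPS libraries without passing the test. The other measured enzymes of synthesis had log2 fold changes between -0.85 (Pmvk) and 0.38 (Idi1). Of the 33 genes, 26 reached a mean count of 10 over the 4 libraries and were tested with edgeR's quasi-likelihood test, fitted over all 9548 genes that reached it. At a Benjamini-Hochberg adjusted p under 0.05, termed called below, 1 of the 26 was lower and 0 were higher, against 1.79% called lower and 6.55% called higher among all tested genes. At an unadjusted p under 0.05, 4 of the 26 were lower and 0 higher, beside 813 lower and 1220 higher of all 9548 tested genes. DESeq2 and limma-trend each called 1 of the 26 lower and 0 higher. Over all tested genes DESeq2 called 219 lower and 738 higher, and limma-trend 184 lower and 650 higher. The median log2 fold change of the 26 was -0.047, beside -0.046 over all tested genes. Both LPS libraries lay below both control libraries for 10 of the 26, beside 25.8% of all tested genes, and above both for 3, beside 24.7%.

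**Figure D1:**
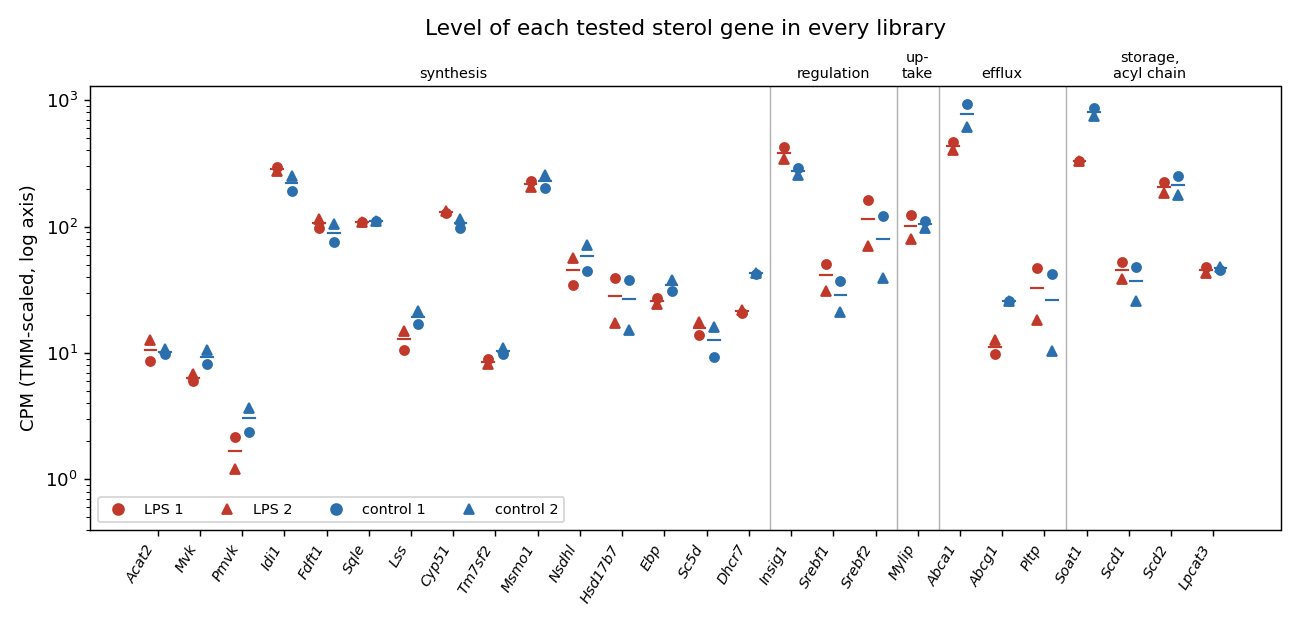
Level of the 26 tested sterol genes in every library, as CPM on a log axis. LPS libraries are red and control libraries blue, circles are libraries numbered 1, triangles those numbered 2, and short bars are group means; Soat1, Abca1, Abcg1 and Dhcr7 show both LPS points below both control points, while for Srebf2 and Pltp the circles stand above the triangles in both groups.

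Promoter sequences of the genes on which the results turn are given first, from RefSeq on GRCm38.p6, each from 250 bases before to 50 bases after the annotated start and written along the gene's own strand. The table held 36 promoters for 27 of the 33 genes, and Fdps, Fdft1, Sqle, Abcg1, Scd1 and Scd2 were not searched. Capitals mark 2 motifs on either strand, the CCAAT box bound by NF-Y, a factor that acts beside SREBP, and a loosened LXR element, GGTNA and GGTCA with 5 free bases between them. The first pair are Idi1 (chr13:8885356-8885655, plus strand) and Msmo1 (chr8:64733529-64733828, minus strand), the most abundant synthesis transcripts per length.
Idi1: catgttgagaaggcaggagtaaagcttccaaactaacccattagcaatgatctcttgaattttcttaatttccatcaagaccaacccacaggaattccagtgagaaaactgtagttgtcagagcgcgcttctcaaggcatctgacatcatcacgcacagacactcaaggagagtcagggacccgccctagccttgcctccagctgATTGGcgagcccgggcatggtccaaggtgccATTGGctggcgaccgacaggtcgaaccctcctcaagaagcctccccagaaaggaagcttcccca
Msmo1: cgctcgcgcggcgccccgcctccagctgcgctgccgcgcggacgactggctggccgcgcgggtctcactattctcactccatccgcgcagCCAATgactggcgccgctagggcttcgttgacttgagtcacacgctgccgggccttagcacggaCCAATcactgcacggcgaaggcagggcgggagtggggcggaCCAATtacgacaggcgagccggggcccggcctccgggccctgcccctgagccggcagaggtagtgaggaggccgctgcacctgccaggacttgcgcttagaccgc

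The next are Soat1 (chr1:156474279-156474578, minus strand), the gene that fell, and Abca1 (chr4:53159846-53160145, minus strand) with Srebf1 (chr11:60210422-60210721, minus strand), the members with a match to the LXR element among the 27 searched.
Soat1: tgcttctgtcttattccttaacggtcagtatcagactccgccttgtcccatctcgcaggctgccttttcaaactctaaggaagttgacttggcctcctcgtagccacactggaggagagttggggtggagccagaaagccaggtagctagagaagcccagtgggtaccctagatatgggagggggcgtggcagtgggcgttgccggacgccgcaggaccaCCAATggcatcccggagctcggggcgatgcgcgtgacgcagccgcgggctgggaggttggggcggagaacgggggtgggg
Abca1: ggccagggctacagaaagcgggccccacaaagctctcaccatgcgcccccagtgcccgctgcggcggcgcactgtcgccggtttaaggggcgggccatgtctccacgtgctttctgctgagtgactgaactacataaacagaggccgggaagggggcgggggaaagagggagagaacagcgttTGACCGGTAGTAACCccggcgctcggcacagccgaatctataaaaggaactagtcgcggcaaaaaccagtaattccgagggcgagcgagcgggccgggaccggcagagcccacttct
Srebf1: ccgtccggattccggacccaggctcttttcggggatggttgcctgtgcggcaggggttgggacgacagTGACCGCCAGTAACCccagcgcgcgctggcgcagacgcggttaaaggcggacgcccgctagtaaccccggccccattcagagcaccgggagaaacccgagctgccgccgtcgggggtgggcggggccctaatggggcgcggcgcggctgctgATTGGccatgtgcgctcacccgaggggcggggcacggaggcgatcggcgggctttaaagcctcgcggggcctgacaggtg

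A CCAAT box was found in a promoter of 14 of the 15 synthesis genes with an entry, Acat2 being the other, where 37.4% of all 32851 promoters hold one; genes with several promoters had more chances. The LXR element was found in 0.207% of all promoters. Its letters were loosened with the Abca1 element known, so that match is a description only. The sterol regulatory element, a site of SREBP, was searched as TCACNCCAC. These letters were found in 1.24% of all promoters and, among the 27 members searched, in that of Hmgcs1 alone. Other forms of the element were not searched, so a promoter without a match may still hold a site. The NF-kB motif, GGG and TNCC with 3 free bases between them, was found in 17.4% of all promoters and in 14 of the 36 promoters of members. These belong to 12 of the 27 members searched, and here too genes with several promoters had more chances. The interferon motif, GAAA repeated after 2 free bases, was found in 3.44% of all promoters and in 1 of the 36, that of Ebp. In the sequences printed the capitals of both motifs do not overlap, and the NF-kB matches are not marked.

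The libraries held 5095630 and 4592474 counts in LPS and 3617176 and 4080568 counts in control. Levels are given as CPM, the count scaled to library size with edgeR's TMM factors. The microglial marker Csf1r was present at 411 and 254 CPM in LPS and 680 and 318 CPM in control, and Tmem119 and P2ry12 were low, at 2.42 to 4.81 CPM in LPS and 7.56 to 10.3 CPM in control. The summed microglial list of 7 genes stood at 574 and 324 CPM in LPS and 1042 and 399.9 CPM in control, with Itgam at 0 in all libraries and 0 of 5 tested members called (edgeR; DESeq2 and limma-trend also 0; 2 lower and 0 higher at an unadjusted p under 0.05). RNA of other glia differed between libraries by their number. The oligodendrocyte list of 7 genes, with none at 0 in all libraries, summed to 371 and 36.3 CPM in LPS and 362 and 43.4 CPM in control. The astrocyte list of 7 genes, with none at 0 in all libraries, summed to 91.4 and 440 CPM in LPS and 77.6 and 310 CPM in control, the libraries numbered 1 first each time. Lists of 6 neuronal and 5 fibroblast genes summed to 49.8 and 66.2 CPM and to 39.2 and 64.8 CPM in LPS, and to 51.4 and 62.4 CPM and to 26.0 and 41.7 CPM in control. No tested gene of these 4 lists was called by edgeR, DESeq2 or limma-trend, or had an unadjusted p under 0.05. Itgam has 2 RefSeq accessions, and Trem2 and the neuronal genes Rbfox3, Syt1, Snap25 and Map2, among others, also have more than 1. As set out below for the members, such low counts are not read as levels of expression. In bulk RNA, fewer cells of a type and less RNA per cell cannot be told apart.

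The number of RefSeq accessions of a gene in the table bore on which members could be measured at all. All 25 members with 1 accession were tested, whereas of the 8 with more than 1 accession only Pmvk was. The same split ran through the table, where 46.8% of 19106 genes with 1 accession and 11.7% of 4801 with more reached the minimum. Hmgcs1, which makes the precursor of mevalonate, had 0 and 0 counts in LPS and 0 and 1 counts in control. Mvd, the mevalonate diphosphate decarboxylase, had 1 and 0 counts in LPS and 0 and 0 counts in control. Fdps, which makes farnesyl diphosphate, had 3 and 2 counts in LPS and 1 and 4 counts in control.

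Among the regulators, Insig2 had 1 and 3 counts in LPS and 0 and 1 counts in control, and Nr1h3 had 0 and 1 counts in LPS and 1 and 2 counts in control. Scap and Nr1h2 had 0 counts in every library. A count of 0 allows up to 3 counts, or 0.589 to 0.653 CPM of the total count in LPS libraries and 0.735 to 0.829 CPM in control libraries, by counting error alone. How reads that fit several accessions of a gene were counted is not stated, and its part in these low counts was not tested. The 7 counts are therefore not read as levels of expression, and Scap and both LXR genes were not measurable here.

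**Figure D2:**
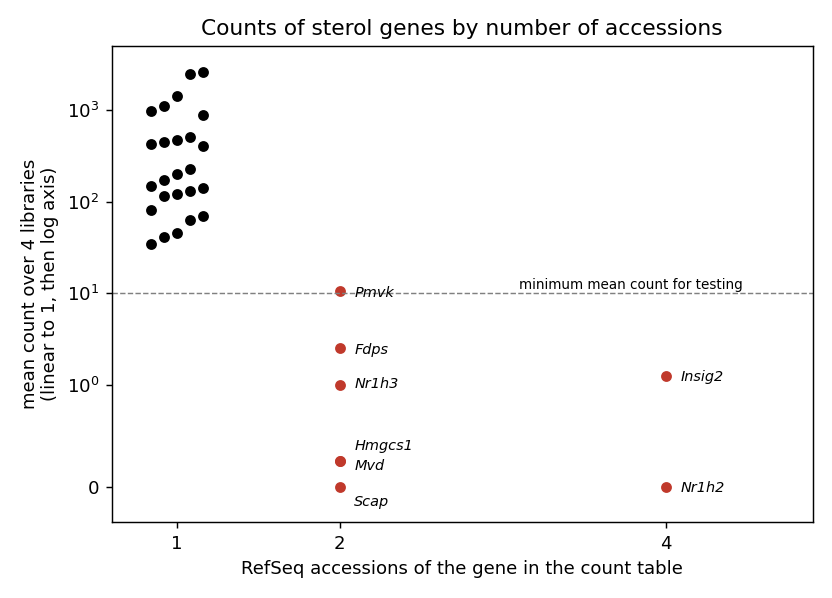
Mean count over the 4 libraries of each of the 33 sterol genes against its number of RefSeq accessions; the count axis is linear to 1 and logarithmic above, and the dashed line is the minimum mean count of 10. All 25 genes with 1 accession lie above the line, while of those with 2 or 4 accessions, in red and named, only Pmvk reaches it and Scap and Nr1h2 lie at 0.

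Synthesis was measured by 15 of its 18 genes, and none was called by edgeR, DESeq2 or limma-trend, with 1 lower and 0 higher at an unadjusted p under 0.05 in edgeR. Their median log2 fold change was -0.071. The pathway up to farnesyl diphosphate was measured by 4 of 7 genes, Acat2, Mvk, Pmvk and Idi1, and the part from squalene on by all 11. Both LPS libraries were below both control libraries for 7 of the 15, beside 25.8% of all tested genes, and above for 2, beside 24.7%. The 7 include Sqle, whose log2 fold change was only -0.026.

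Idi1, the isomerase that interconverts the isoprenoid building blocks, had 299 and 276 CPM in LPS and 190 and 252 CPM in control. Its LPS libraries both lay above the control libraries, and its log2 fold change was 0.38 ± 0.22 (SE; edgeR adjusted p = 0.41). Mvk, the mevalonate kinase, went the other way, with 6.01 and 6.77 CPM in LPS and 8.21 and 10.5 CPM in control, and its groups did not overlap either (-0.55 ± 0.34, adjusted p = 0.45). Pmvk, the next kinase, has 2 accessions and an uncertain level, with 9 and 5 counts in LPS and 9 and 19 counts in control. Acat2, which joins acetyl units at the start of the pathway, had 8.66 and 12.6 CPM in LPS and 9.80 and 10.7 CPM in control, and the groups overlapped.

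From squalene on, Sqle, the squalene epoxidase and a rate-limiting step, had 108 and 108 CPM in LPS and 110.2 and 110.2 CPM in control. Its log2 fold change of -0.026 had a 95% interval of -0.49 to 0.44, so a change within those bounds in either direction was not excluded. Cyp51, the sterol demethylase, had 129 and 132 CPM in LPS and 96.7 and 115 CPM in control, with no overlap of the groups (0.30 ± 0.20, adjusted p = 0.49). Fdft1, the squalene synthase, had 97.4 and 116 CPM in LPS and 75.2 and 104 CPM in control, and its groups overlapped (0.25 ± 0.25, adjusted p = 0.66). Scaling by total counts moved the median over all tested genes to -0.48, and the values of Idi1, Cyp51 and Fdft1 were then -0.077, -0.15 and -0.20. Lss, which closes the sterol ring, lay lower in both LPS libraries, with 10.6 and 14.98 CPM in LPS and 16.95 and 21.3 CPM in control (-0.58 ± 0.31, adjusted p = 0.37).

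The methyl-removing enzyme Msmo1 had 230 and 204 CPM in LPS and 201 and 255 CPM in control, and its control libraries lay on either side of both LPS libraries. Nsdhl, which acts with it, had 34.6 and 56.1 CPM in LPS and 44.8 and 71.3 CPM in control, with more of it in the libraries numbered 2 of each group. Hsd17b7, the reductase of the same complex, had 39.2 and 17.2 CPM in LPS and 37.9 and 15.1 CPM in control and so was higher in the libraries numbered 1 of each group. The remaining enzymes Ebp, Tm7sf2 and Sc5d had log2 fold changes of -0.41, -0.29 and 0.31, with adjusted p-values of 0.42, 0.68 and 0.72. Both LPS libraries of Ebp and Tm7sf2 were below both control libraries, and those of Sc5d overlapped with them.

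Dhcr7, which carries out the last reduction to cholesterol, had the largest log2 fold change in size of the 15 measured synthesis genes. It had 20.7 and 21.99 CPM in LPS and 42.1 and 43.2 CPM in control, 1.998-fold lower, with tight replicates in both groups (-0.999 ± 0.22, adjusted p = 0.055). The difference was -1.009 within libraries numbered 1 and -0.96 within those numbered 2. With a minimum mean count of 50 its adjusted p was 0.034, and with total-count scaling it was 0.025, the range over all settings without a replicate block being 0.025 to 0.36.

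Per length of transcript the enzymes spanned a wide range. Msmo1 and Idi1 led with 106 ± 9.08 and 95.0 ± 5.21 CPM per kilobase in LPS and 112 ± 18.8 and 73.0 ± 14.5 CPM per kilobase in control (SD, n = 2 each), and in LPS these neighbours differed by less than the sum of their SDs. Sqle, Cyp51 and Fdft1 followed with 39.3, 33.1 and 28.8 CPM per kilobase in LPS and 40.0, 27.0 and 24.2 CPM per kilobase in control. Among the enzymes with a matched length, which leaves out Pmvk, Lss was the lowest in LPS at 2.74 ± 0.667 CPM per kilobase, beside 4.10 ± 0.661 in control, and Sc5d, at 3.30 ± 0.545 in LPS, was the lowest in control at 2.65 ± 1.006 CPM per kilobase. The lengths are those of GENCODE transcripts matched to the accession, and the length that was counted over is not given in the sources used here.

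**Figure D3:**
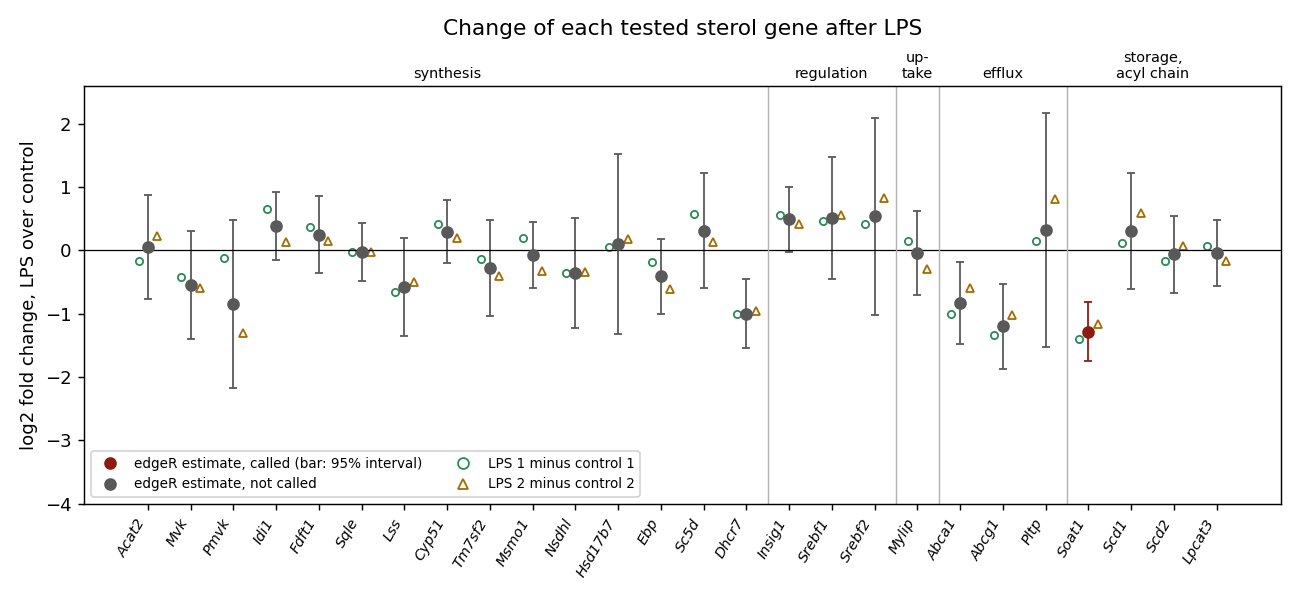
Log2 fold change of LPS over control for the 26 tested sterol genes, by role, from edgeR, with 95% intervals as bars and the called gene in red; open green circles are LPS 1 minus control 1 and open brown triangles LPS 2 minus control 2. Soat1 at -1.28 is the called gene, and the intervals of Dhcr7, Abca1 and Abcg1 also lie below 0.

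Of the 3 measured regulators none was called by edgeR, DESeq2 or limma-trend or had an unadjusted p under 0.05. Insig1, which retains SREBP in the endoplasmic reticulum and is itself an SREBP target, had 428 and 341 CPM in LPS and 291 and 256 CPM in control. Both LPS libraries were above both control libraries (0.49 ± 0.21, adjusted p = 0.25), and with total-count scaling the value was 0.059. Srebf2, the SREBP of cholesterol synthesis, had 162 and 69.8 CPM in LPS and 121 and 39.1 CPM in control. It was higher in the libraries numbered 1 of both groups, by more than it differed between groups (0.54 ± 0.62, adjusted p = 0.72), with 0.42 within libraries numbered 1 and 0.83 within those numbered 2. Srebf1, the SREBP of fatty acid synthesis, had 51.0 and 31.2 CPM in LPS and 37.1 and 20.9 CPM in control, with 0.46 and 0.57 within the numbers (0.51 ± 0.39, adjusted p = 0.55). Leaving out 1 library at a time gave 0.32 to 0.65 for Insig1, 0.11 to 0.96 for Srebf1 and -0.19 to 1.54 for Srebf2, the lowest values of all 3 without LPS replicate 1. The promoters printed above for Srebf1 and Abca1 hold the LXR element in capitals. Srebf1 has other annotated promoters, which had no match, and which of them its counts come from was not tested. The fold changes of Srebf1 and Abca1 had opposite signs, with no call for either.

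Uptake was represented by Mylip, which removes lipoprotein receptors from the surface. It had 122 and 79.99 CPM in LPS and 111 and 98.2 CPM in control, and the control libraries lay between the LPS libraries. Its log2 fold change was -0.047 with a 95% interval of -0.71 to 0.62 (adjusted p = 0.95).

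The efflux transporters Abca1 and Abcg1 were both lower in LPS libraries but were not called. Abca1, which loads cholesterol on lipid-poor apolipoproteins, had 464 and 402 CPM in LPS and 935 and 609 CPM in control. Its groups did not overlap, and the fold change was -0.83 ± 0.26 on the log2 scale, with a 95% interval of -1.48 to -0.19 (adjusted p = 0.14). The difference was -1.011 within libraries numbered 1 and -0.60 within those numbered 2. Without control replicate 2 it was -1.14 (adjusted p = 0.021) and without control replicate 1 it was -0.50 (adjusted p = 0.35, range over the settings without a replicate block 0.018 to 0.46).

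Abcg1, which passes cholesterol to lipoprotein particles, had 9.86 and 12.6 CPM in LPS and 25.7 and 26.0 CPM in control, 2.30-fold lower. Each LPS library held less than each control library (-1.20 ± 0.27, adjusted p = 0.056), with -1.34 and -1.02 within the numbers. With a minimum mean count of 50 the adjusted p was 0.038, and with total-count scaling 0.029 (range without a replicate block 0.029 to 0.36). Pltp, the phospholipid transfer protein, had 46.9 and 18.4 CPM in LPS and 42.4 and 10.3 CPM in control (0.32 ± 0.74, adjusted p = 0.87). It differed more by library number than by group, with 0.15 within libraries numbered 1 and 0.81 within those numbered 2. The 3 genes had a median log2 fold change of -0.83.

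Soat1, which esterifies cholesterol for storage, was the gene that fell. It had 330 and 333 CPM in LPS and 871 and 745 CPM in control, a mean of 332 ± 2.28 CPM in LPS and 808 ± 89.1 CPM in control (SD, n = 2 each). The LPS libraries were close to each other and far below the controls, 2.44-fold lower (-1.28 ± 0.19, edgeR adjusted p = 0.014), with -1.40 and -1.16 within the numbers. The direction held in every setting run. Leaving out LPS replicate 1 ended the call (-1.28, adjusted p = 0.13), as did leaving out LPS replicate 2 (-1.29, 0.12), and the adjusted p ranged from 2.6e-04 to 0.13 over the settings without a replicate block. The summed microglial markers given above overlapped between the groups but were lower in LPS than in control within each number, and their part in the fall of Soat1 was not tested. Of the 5 tested markers P2ry12 had a log2 fold change of -1.29, Tmem119 -1.19, Cx3cr1 -1.002, Csf1r -0.59 and Aif1 0.24, with adjusted p-values of 0.19, 0.14, 0.61, 0.52 and 0.73.

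The 3 enzymes of acyl chains in the same group were not called by edgeR, DESeq2 or limma-trend, nor at an unadjusted p under 0.05. Scd2, a desaturase that makes monounsaturated fatty acids, had 224 and 186 CPM in LPS and 250 and 178 CPM in control, and its relative Scd1 had 52.2 and 38.7 CPM in LPS and 48.2 and 25.6 CPM in control. The groups overlapped for both (-0.064 ± 0.24 and 0.31 ± 0.37). Both lie near each other on chromosome 19 and are close paralogs, so reads may have been split between them. Lpcat3, which puts polyunsaturated chains into phospholipids, had 47.6 and 42.8 CPM in LPS and 45.3 and 48.1 CPM in control (-0.047 ± 0.21).

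The number of the library was a larger source of difference than LPS for several members. Libraries numbered 2 and numbered 1 differed in the same direction in both groups for 18 of the 26 genes. For 12 of the 26 the difference between numbers, in the same or in opposite directions, was larger in both groups than the fold change of LPS. Neither count was taken over all tested genes, so neither sets the members apart. For Srebf2 the log2 difference of number 2 minus number 1 was -1.21 in LPS and -1.62 in control. Pltp had -1.33 in LPS and -1.997 in control, and Hsd17b7 -1.17 in LPS and -1.30 in control. These 3 were the members that differed by a log2 of at least 1 in both groups. The oligodendrocyte marker Mag was lower in number 2, with -5.65 in LPS and -5.59 in control. The astrocyte marker Aqp4 was higher in number 2, with 3.82 in LPS and 3.63 in control. Each had the largest difference of its tested list. The smallest were those of Mbp, with -1.29 in LPS and -1.61 in control, and Aldoc, with 0.24 and 0.47. The microglial markers Cx3cr1 and Csf1r were also lower in number 2, at -1.45 and -0.69 in LPS and -2.59 and -1.09 in control. P2ry12 and Aif1 went the same way, and Tmem119 had 0.31 in LPS and -0.26 in control. The part of oligodendrocyte, astrocyte and microglial RNA in the levels of Srebf2, Pltp and Hsd17b7 was not tested. For Soat1, Abcg1, Dhcr7 and Abca1 the fold change of LPS was larger than the difference between numbers in each group, and within both numbers it was negative.

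**Figure D4:**
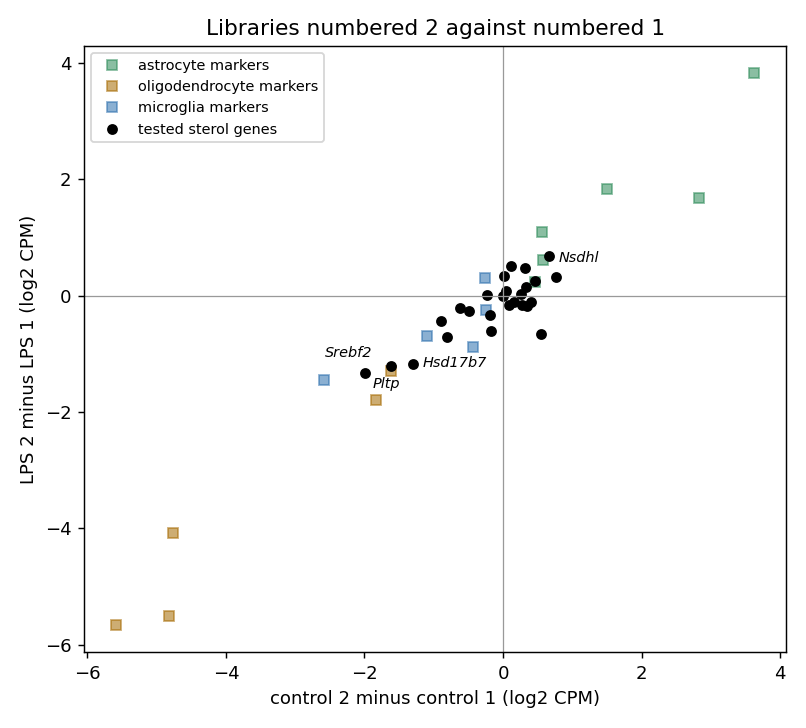
Difference in log2 CPM between libraries numbered 2 and numbered 1, in LPS (vertical axis) against control (horizontal axis), for the tested sterol genes in black and for tested markers of glial types as squares. Oligodendrocyte markers lie at the lower left and astrocyte markers at the upper right. Srebf2, Pltp and Hsd17b7 lie on the side of the oligodendrocyte markers, where the microglial markers other than Tmem119 also lie.

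Outside the 33 genes, 45 others that handle sterols or make fatty acids were taken from lists by role, and 33 of them reached the minimum count. Of these 33, 4 were called higher and 2 lower, against 6.55% and 1.79% of all tested genes. The counts by list below stand beside the same shares. DESeq2 called 5 of the 33 higher and 2 lower, and limma-trend 4 and 2. Another 12, 11 of them with more than 1 accession, lay below the minimum. Among 5 further genes of synthesis and among 7 tested of 10 genes of fatty acid synthesis, none was called by edgeR, DESeq2 or limma-trend or had an unadjusted p under 0.05. Fasn, the fatty acid synthase, had 75.8 and 44.2 CPM in LPS and 99.8 and 51.1 CPM in control (-0.33 ± 0.42, adjusted p = 0.75).

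Of the 5 genes of wider efflux and storage, 1 fell and 0 rose. Nceh1, which hydrolyses cholesterol esters in macrophages, fell to 197 and 146 CPM in LPS, against 616 and 592 CPM in control. Both LPS libraries lay far below both controls, and the level was 3.52-fold lower (-1.81 ± 0.22, adjusted p = 0.0080). Without LPS replicate 2 the value was -1.62 (adjusted p = 0.056, range without a replicate block 4.1e-07 to 0.056). Plin2, the coat protein of lipid droplets, averaged 917 CPM in LPS and 992 CPM in control, without a call (-0.11 ± 0.18, adjusted p = 0.80). The transporters Abca7 and Abcg4 had log2 fold changes of -0.007 and -0.46, with overlapping groups and no call.

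Of 3 tested oxysterol enzymes 1 rose, 1 fell and 1, Cyp46a1, the cholesterol hydroxylase of neurons, was not called (-0.20, adjusted p = 0.89). Ch25h, which hydroxylates cholesterol to an oxysterol, had 833 and 724 CPM in LPS and 8.74 and 12.8 CPM in control, and rose by 6.16 ± 0.29 on the log2 scale (adjusted p = 4.0e-04). Its LPS libraries were far above its control libraries. Cyp27a1, the mitochondrial sterol hydroxylase, fell on small counts, 13 and 8 in LPS and 47 and 49 in control (-2.10 ± 0.42, adjusted p = 0.041). It was not called when any 1 of 3 libraries was left out, LPS replicate 1 (-2.48, adjusted p = 0.13), LPS replicate 2 (-1.80, 0.19) or control replicate 1 (-1.91, 0.099).

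In uptake and lysosomal release 2 of 8 tested genes rose and 0 fell, beside 6.55% and 1.79% of all tested genes. DESeq2 called 3 of them higher and limma-trend 2, and both called 0 lower. Msr1, a scavenger receptor for modified lipoproteins, had 112 and 174 CPM in LPS and 31.0 and 51.5 CPM in control (1.78 ± 0.36, adjusted p = 0.039). It has 2 accessions, so its level is uncertain. Stard3, which handles cholesterol at late endosomes, had 149 and 116 CPM in LPS and 49.0 and 42.0 CPM in control (1.54 ± 0.23, adjusted p = 0.016). For both genes the LPS libraries lay above the controls. So did those of Gramd1a, without an edgeR call, at 72.6 and 66.7 CPM in LPS and 37.6 and 27.5 CPM in control (1.10 ± 0.25, edgeR adjusted p = 0.057).

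Msr1 was not called when LPS replicate 1 (2.07, adjusted p = 0.054) or LPS replicate 2 (1.43, 0.15) was left out, nor with total-count scaling (1.33, 0.099), and Stard3 was not called without LPS replicate 1 (1.35, 0.11). Over the settings without a replicate block the adjusted p ranged from 2.7e-04 to 0.15 for Msr1, from 1.2e-04 to 0.11 for Stard3 and from 0.0016 to 0.15 for Rnf139. Among other regulators 1 of 5 tested genes rose, Rnf139, a ubiquitin ligase of the endoplasmic reticulum, with 179 and 201 CPM in LPS and 74.4 and 89.5 CPM in control (1.21 ± 0.21, adjusted p = 0.024). Rnf139 was not called without LPS replicate 1 (1.29, 0.11), LPS replicate 2 (1.12, 0.15) or control replicate 1 (1.07, 0.062), nor with total-count scaling (0.76, 0.14).

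**Figure D5:**
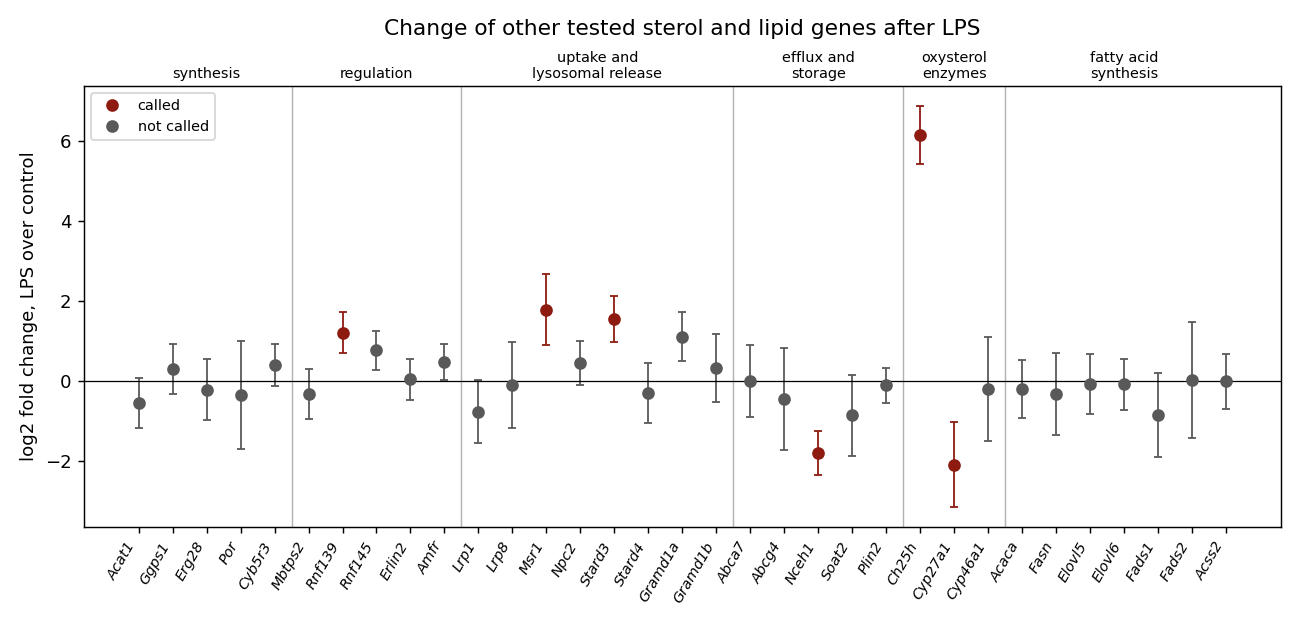
Log2 fold change of LPS over control for the 33 tested genes of the wider sterol and fatty acid lists, from edgeR, with 95% intervals as bars and called genes in red. Ch25h stands at 6.16, Rnf139, Msr1 and Stard3 are above 0, Nceh1 and Cyp27a1 are below 0, and no gene of fatty acid synthesis is called.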

How the data were processed

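RNA was measured in 2 LPS and 2 control libraries. Per the labels' protocols, libraries were directional, depleted of ribosomal RNA and read from both ends. HTSeq 0.6.1, Cufflinks 2.2.1, TopHat2 2.0.10, Trimmomatic 0.33 and CASAVA 1.8.2 are named with build mm10, per the submitters' processing notes. The sources used here do not give the counting mode, strand setting or annotation. The authors deposited whole-number counts for 32915 RefSeq accessions, in a table called normalized by its name. Totals differ between libraries and no rescaling is stated, so the values were treated as counts. Accessions were named by RefSeq GRCm38.p6 (32487) or GENCODE (187), 241 kept their identifier, and counts were summed per gene.

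A mean count of 10 was the minimum, and genes reaching it were tested with edgeR 4.0.16 (R 4.3.3; TMM factors 0.82 and 0.906 in LPS, 1.05 and 1.28 in control), two-sided, without a block, with adjustment over 9548 genes. The SE is the log2 fold change divided by the square root of F. Library differences used log2 CPM with a prior count of 2. DESeq2 1.42.0, limma 3.58.1, other scalings and filters, the highest accession per gene, a replicate block and leaving out each library were alternatives. Counts of replicates were too far apart for sampling noise (chi-square divided by its degrees of freedom, 26.5 for LPS and 33.2 for control). The test was also run on simulated counts, drawn with the same relative spread for every gene and no difference by library number. That run therefore does not show how the test behaves with the spread of these libraries. Intervals and floors cover counting error or replicate spread only. All 33 members were named, and of the other lists the called genes and some that were not called. Members and lists were chosen with earlier results of these data known. Some marker genes are not reported here and were left out of the marker sums.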

Additional observations from a re-analysis of the deposited data

How the results depend on the processing

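Soat1 kept its direction under all 12 alternatives. The count of members called lower was 0 to 2 when 1 library was left out (0 without LPS replicate 1 or 2 and 2 without control replicate 2), 3 with a minimum mean count of 50 and 4 with total-count scaling; the cause was not tested. Over all genes, leaving out 1 library gave 335 to 629 calls higher and 33 to 260 lower. Total-count scaling gave 489 lower and shifted the median of all genes to -0.48, so that higher genes made up 49.0% of calls against 78.5%. It moved the medians of synthesis to -0.53, efflux to -1.25 and storage and acyl chain genes to -0.48, and turned the sign of Acat2 (-0.38), Cyp51 (-0.15), Fdft1 (-0.20), Hsd17b7 (-0.31), Idi1 (-0.077), Pltp (-0.061), Sc5d (-0.15) and Scd1 (-0.099). Without a filter Lpcat3 (0.059), Msmo1 (0.034), Mylip (0.056), Scd2 (0.042) and Sqle (0.080) turned. None of these was called in any setting without a block.

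With 1 library left out, the synthesis median ranged from -0.24 to -0.052, and the sign turned for Acat2 (-0.24 to 0.29), Hsd17b7 (-0.62 to 0.88), Lpcat3 (-0.13 to 0.029), Msmo1 (-0.24 to 0.085), Mylip (-0.39 to 0.23), Pltp (-0.50 to 1.65), Sc5d (-0.033 to 0.74), Scd1 (-0.12 to 0.81), Scd2 (-0.32 to 0.19) and Srebf2 (-0.19 to 1.54). Where 1 library of a group was left, it was assumed to vary like the other group.

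The replicate numbers are not said to pair the samples. Same-numbered libraries deviated together across tested genes (r = 0.66 across genes, which are not independent replicates). With the number as a replicate block, edgeR called 1676 genes higher and 1258 lower, among them all 796 called without it. Members called were then 4 higher (Idi1 0.39, Insig1 0.49, Srebf1 0.51 and Srebf2 0.60) and 5 lower (Soat1, Dhcr7, Abcg1, Abca1 and Lss, the last at -0.58).

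At 3617176 to 5095630 counts per library and 2 libraries per group, 7 members could not be tested and low ones had wide intervals (Pmvk, 95% interval -2.18 to 0.47).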
